A study of Mus musculus with 82 samples.

Results

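The genes described here are Dppa2, Dppa4, Dppa3, Dppa5a, Utf1, Tdgf1, Gdf3, Lin28a and Tdh, chosen by name as genes known for their activity in embryonic stem (ES) cells. They are 9 of the 24746 genes counted here on the mouse genome build GRCm38, which have curated RefSeq transcripts and are not small RNA genes. The choice of the 9 was made with earlier results of these data known. The study measured nascent RNA, the RNA still attached to a transcribing polymerase, in nuclei of the mouse ES cell line V6.5, which came from the inner cell mass of a hybrid mouse embryo. All cells were grown without a genetic change or a drug, in medium with serum and leukaemia inhibitory factor on gelatin, and the labels give the groups no difference other than the assay and the batch. In the nuclear run-on, engaged polymerases added a nucleotide carrying a propargyl group, and a barcoded DNA was joined to it by click chemistry. The AGTuC assay did this in bulk with a sarkosyl concentration that breaks up the nuclei (2 libraries, both of 1 batch, Exp125c). inAGTuC used less sarkosyl, which keeps nuclei intact, with many nuclei per well of plates with 96 wells (4 libraries, Exp208_c12, Exp208_c14, Exp234_c11 and Exp261_c16). scGRO-seq used the same intact nuclei with 1 nucleus per well, and the cells of each batch were summed. Of the 21 scGRO-seq batches in the labels, 14 held cells that passed the filters, and the values below come from the 10 that the study displays for its reads per cell. The study's methods state that it chose batches by how well they correlated with other batches, so these 10 are not an unselected set. Because the AGTuC libraries share a batch that holds nothing else, that assay and its batch cannot be told apart, and the p-values below measure only the spread between these libraries and batches of 1 cell line, which may be technical. In the main fits all assays were fitted together with a shared estimate of each gene's spread. The scGRO-seq batches therefore also enter the p-values of inAGTuC against AGTuC.

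Most of these genes are switched on in the inner cell mass and in ES cells and are silenced when the cells differentiate. Dppa2 and Dppa4 encode partner proteins with a SAP domain that bind chromatin together; Dppa3 (also called Stella) guards DNA methylation in the oocyte and early embryo; Dppa5a encodes an RNA-binding protein of the KH type; Utf1 encodes a chromatin-bound protein of undifferentiated cells. Tdgf1 (Cripto) is the co-receptor of the growth factor Nodal and Gdf3 is a ligand of the same signalling family, Lin28a blocks the maturation of the let-7 microRNAs, and Tdh encodes the mitochondrial threonine dehydrogenase that mouse ES cells use to feed glycine and one-carbon metabolism.

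On GRCm38, Dppa4 (gene ID 73693, chr16:48283735-48294292, plus strand, 8 exons) lies in front of Dppa2 (73703, chr16:48310274-48319513, plus, 7 exons), with 15981 bp between them. Gdf3 (14562, chr6:122605403-122610087, minus, 2 exons) and Dppa3 (73708, chr6:122626424-122630271, plus, 4 exons) are neighbours on opposite strands, and Apobec1 starts 2958 bp past the end of Gdf3. Utf1 (22286, chr7:139943856-139945112, plus, 2 exons) and Dppa5a (434423, chr9:78367052-78368199, minus, 3 exons) are the shortest, at 1257 and 1148 bp. Tdgf1 (21667, chr9:110939608-110946158, minus, 6 exons) spans 6551 bp, Lin28a (83557, chr4:134003330-134018816, minus, 4 exons) spans 15487 bp with Dhdds 2447 bp past its end, and Tdh (58865, chr14:63492347-63509092, minus, 9 exons) spans 16746 bp. None of the 9 spans overlaps another of the 24746 genes counted here, and overlap with other annotated genes was not examined.

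Promoter windows, from 250 bases before to 50 bases after the RefSeq start, were at hand for 3 of the 9 genes and are printed because the 3 genes differ below in how many reads fall close to the start. The sequences are those of RefSeq on GRCm38.p6, on the strand of the gene, and capitals mark matches to the searched motifs.
Tdgf1, chr9:110946109-110946408, minus strand: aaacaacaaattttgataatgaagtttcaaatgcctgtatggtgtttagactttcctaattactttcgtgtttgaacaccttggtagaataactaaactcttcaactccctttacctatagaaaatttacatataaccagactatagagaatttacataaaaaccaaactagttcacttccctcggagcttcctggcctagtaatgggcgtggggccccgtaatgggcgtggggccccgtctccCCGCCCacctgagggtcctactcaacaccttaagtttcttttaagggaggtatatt
Utf1, chr7:139943606-139943905, plus strand: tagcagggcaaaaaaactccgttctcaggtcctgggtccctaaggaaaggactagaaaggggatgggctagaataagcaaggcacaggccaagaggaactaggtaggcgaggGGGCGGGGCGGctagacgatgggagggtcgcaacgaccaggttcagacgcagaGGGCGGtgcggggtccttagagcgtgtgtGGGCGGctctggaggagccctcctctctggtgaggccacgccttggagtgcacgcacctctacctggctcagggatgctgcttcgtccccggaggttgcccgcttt
Lin28a, chr4:134018767-134019066, minus strand: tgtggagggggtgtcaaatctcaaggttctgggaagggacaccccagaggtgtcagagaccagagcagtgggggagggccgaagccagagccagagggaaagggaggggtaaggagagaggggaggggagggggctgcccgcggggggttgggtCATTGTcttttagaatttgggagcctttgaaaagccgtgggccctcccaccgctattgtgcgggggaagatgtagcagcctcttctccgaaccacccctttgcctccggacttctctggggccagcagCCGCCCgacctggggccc
The windows of Utf1 and Lin28a hold 62% and 63.3% G and C with 17 and 10 CpG, whereas that of Tdgf1 holds 41.7% with 7 CpG. The motifs searched on both strands were TATAAA (the core promoter element), GGGCGG (the GC box), ATTTGCA (the motif of POU factors), ACAATG (that of SOX factors), AAGGTCA (that of ESRRB) and GGGTGTG (that of KLF factors). Utf1 has 4 GC boxes on its own strand between 138 and 51 bases before the start, of which the first pair overlaps by 1 base (its first match runs from base -138 to -133 and the next from -133 to -128). Tdgf1 has 1 GC box on the opposite strand directly in front of the start (-6 to -1), Lin28a has 1 on the opposite strand inside the transcript (32 to 37), and Lin28a also has a SOX motif on the opposite strand (-96 to -91). Among 32851 promoter windows of the same length, 35.7% hold the GC box, 12.6% the SOX motif, 13.6% the core promoter element, 4.02% the POU motif, 4.72% the ESRRB motif and 7.95% the KLF motif, so that a match to the GC box by itself is common.

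A unique molecular identifier (UMI) marks 1 captured RNA molecule, and a read was counted for a gene when its RNA strand was the strand of the gene ("sense"). The AGTuC libraries held 2231837 and 4755740 UMIs, the inAGTuC libraries 623265 to 1462003 and the scGRO-seq batches 223119 to 4928371, so that 3 UMIs, the limit that a count of 0 allows, stand for 0.609 to 13.4 CPM, the unit of the levels below (the UMIs of a gene per 1000000 UMIs of its library or batch). Molecules listed in more than 1 library, 22.9% of the sense reads on the 9 genes against 20.8% of all reads, were left out. The part left out was unequal between assays. It was 0.511% and 0.245% in the AGTuC libraries, 4.67% to 23.6% in the inAGTuC libraries and 28.94% over the 10 scGRO-seq batches. On the 9 genes it ran from 14.7% (Utf1) to 33.8% (Dppa4) of the sense reads, and it was 41.7% of the reads on the opposite strand. Over all genes, reads on the strand opposite to the gene were 16.5% and 16.8% in AGTuC, 19.2% to 52.4% in inAGTuC and 16.6% to 34.4% in scGRO-seq, with Exp234_c11 at the top. Over the 9 genes together this share was 6.30% in AGTuC, 28.1% in inAGTuC and 22.8% in scGRO-seq (95% Wilson interval 21.3% to 24.3%), and its part in the results was not tested. It was 17.5% in inAGTuC without Exp234_c11 and 14.9% in scGRO-seq without the batch Exp236, in both still above the 6.30% of AGTuC. The batch Exp156 (103 cells, the lowest total) stood apart by high values of several of these genes, and Exp234_c11 by reads on the opposite strand of them (53.98%), so results are given without these where that changes them. Among the scGRO-seq batches that share ran from 6.30% (Exp264a) to 30.2% (Exp236) and 31.4% (Exp260), and none of them stood alone. The assay of Exp261_c16 is in doubt, since 99.72% of the molecules of a list deposited as scGRO-seq under the same library name are also in its inAGTuC list. It was kept as inAGTuC, and calls that are lost or newly made without it are named below. The 8 defining ES cell markers (Pou5f1, Sox2, Nanog, Esrrb, Zfp42, Klf4, Tfcp2l1 and Fgf4) were all transcribed, with a summed level of 1565 to 1665 CPM in AGTuC, 412 to 878 in inAGTuC and 254 to 1497 in scGRO-seq. Fibroblast markers summed to 6.27 to 8.20, 8.93 to 17.7 and 5.51 to 32.1 CPM, with 4 of 6 (Col1a2, Col3a1, Postn and Lum) at 0 in AGTuC, and 2-cell-like markers to at most 0.687 CPM in any library or batch. Primitive endoderm markers summed to 34.05 to 35.8, 24.7 to 62.1 and 8.26 to 59.4 CPM, mesoderm to 6.94 to 7.62, 2.43 to 6.42 and 0 to 14.1, neural to 52.4 to 58.04, 11.6 to 16.04 and 5.78 to 31.4, and trophectoderm to 45.6 to 51.1, 13.1 to 33.7 and 13.5 to 32.3. In AGTuC most of the neural sum was Sox1 (a mean of 54.9 CPM) and most of the trophectoderm sum was Tfap2c (47.4), whereas Pax6, Cdx2, Elf5 and Gata3 were higher in the intact nuclei.

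Tdgf1, Gdf3, Tdh, Lin28a, Utf1, Dppa2 and Dppa5a had lower levels in scGRO-seq than in AGTuC, whereas Dppa4 and Dppa3 did not pass the test. Tdgf1, the co-receptor of Nodal, had 109 and 106 CPM in the AGTuC libraries and 35.3, 53.6, 21.9 and 82.5 in the inAGTuC libraries, in the order in which these were introduced. Across the scGRO-seq batches its lowest, median and highest levels were 25.7, 51.1 and 108 CPM. All inAGTuC libraries and 9 of 10 scGRO-seq batches lay below both AGTuC libraries, with Exp156 (108) between them. The log2 difference from AGTuC was -1.23 in scGRO-seq (SE 0.43, limma adjusted p = 0.01345) and -1.30 in inAGTuC (SE 0.49, adjusted p = 0.0287). Gdf3 had 41.2 and 42.1 CPM in AGTuC, 11.2, 9.74, 5.47 and 21.3 in inAGTuC, and 1.49, 10.2 and 40.3 as lowest, median and highest in scGRO-seq. No value of the other assays reached those of AGTuC, and the log2 difference was -1.91 for both (SE 0.50, adjusted p = 0.00144 for scGRO-seq; SE 0.58, adjusted p = 0.00838 for inAGTuC). A level is a share of the UMIs of its library, and the assays differ in how they were run. In the summed libraries, fewer cells that transcribe a gene, less RNA per cell and a difference between the assays cannot be told apart.

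Tdh was the most heavily read of the 9. The AGTuC libraries had 342 and 316 CPM, the inAGTuC libraries 48.1, 86.4, 37.6 and 44.7, and the scGRO-seq batches 341 (Exp156), 183 (Exp160), 83.1 (Exp208), 79.9 (Exp260), 54.9 (Exp260b), 50.7 (Exp211), 49.7 (Exp236), 39.98 (Exp246), 23.4 (Exp263) and 21.4 (Exp264a). Exp156 lay between the AGTuC libraries, and all other batches lay below them. The log2 difference was -2.47 for scGRO-seq against AGTuC (SE 0.51, limma adjusted p = 0.000139) and -2.68 for inAGTuC (SE 0.58, adjusted p = 0.000539). Lin28a had 66.3 and 58.9 CPM in AGTuC and 11.2, 21.9, 14.4 and 42.6 in inAGTuC. In scGRO-seq the lowest, median and highest levels of Lin28a were 10.8, 19.98 and 58.8, the last in Exp246, just under the AGTuC values. Its log2 differences were -1.37 (SE 0.45, adjusted p = 0.00965) and -1.56 (SE 0.52, adjusted p = 0.0144). The batches with much Tdh were not those with much Lin28a: Exp156 had 76 UMIs of Tdh and 4 of Lin28a, while Exp246 had 17 and 25.

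Among the genes for chromatin proteins, Utf1 had 26.9 and 27.3 CPM in AGTuC, 8.02, 9.74, 8.21 and 8.93 in inAGTuC, and 0, 6.07 and 17.9 as lowest, median and highest in scGRO-seq. Neither assay overlapped with AGTuC, and the log2 differences from it were -2.12 for scGRO-seq (SE 0.46, limma adjusted p = 0.000266) and -1.57 for inAGTuC (SE 0.54, adjusted p = 0.0169). Dppa2 had 19.7 and 16.6 CPM in AGTuC, 1.60, 13.4, 2.05 and 13.7 in inAGTuC, and 0, 8.45 and 15.2 in scGRO-seq, all below AGTuC. Its log2 difference was -1.35 in scGRO-seq (SE 0.57, adjusted p = 0.03695) and -1.62 in inAGTuC (SE 0.69, adjusted p = 0.0504), the latter not past the threshold of 0.05. Its partner Dppa4 had 26.9 and 19.98 CPM in AGTuC, 20.9, 24.3, 8.89 and 58.4 in inAGTuC, and 7.05, 22.7 and 71.7 in scGRO-seq. Here the groups overlapped on both sides, with log2 differences of -0.09 (SE 0.52, adjusted p = 0.892) and 0.01 (SE 0.59, adjusted p = 0.990). Dppa3 was read rarely in every assay, with 6 UMIs in AGTuC, 5 in inAGTuC and 31 in scGRO-seq, and with 5 of 10 batches at 0. Its highest level was 4.95 CPM, and no difference was detectable at this depth (log2 difference 1.03, SE 0.77, adjusted p = 0.237 for scGRO-seq).

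Dppa5a had 19.3 and 17.2 CPM in AGTuC, 16.04, 26.8, 11.6 and 4.81 in inAGTuC, and 0, 4.41 and 31.4 in scGRO-seq. The inAGTuC libraries lay on both sides of AGTuC, and 9 of 10 scGRO-seq batches lay below it. The log2 difference was -2.31 for scGRO-seq (SE 0.64, limma adjusted p = 0.00242) and -0.61 for inAGTuC (SE 0.69, adjusted p = 0.475). Of its reads 23.4% had a mapping quality under 10, that is, could be placed elsewhere almost as well, against 11.8% over the 9 genes and 12.1% of all reads, so that its level is less certain than the others.

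In all, 7 of the 9 genes were lower in scGRO-seq than in AGTuC, where 41.1% of 18677 genes tested were lower, and 5 of 9 were lower in inAGTuC, where 27.6% were. No gene of the 9 was higher. Every scGRO-seq batch lay below both AGTuC libraries for 4 of 9 genes (Dppa2, Utf1, Gdf3 and Lin28a), which held for 32.9% of all genes, and every inAGTuC library did for 6 of 9 (the same 4, Tdgf1 and Tdh), which held for 41.5%. The median of all genes was itself shifted, by -0.74 in scGRO-seq and -0.55 in inAGTuC on the log2 scale. After TMM scaling, which set these medians to 0.02 and 0.03, the calls were 4 of 9 (Dppa5a, Gdf3, Tdh and Utf1; 25.5% of all genes) and 2 of 9 (Gdf3 and Tdh; 17.3%), and the split of all genes moved from 21.4% higher and 41.1% lower to 29.6% and 25.5% for scGRO-seq. With all 14 scGRO-seq batches in the fit, none of the 9 was called in inAGTuC (11.2% of all genes) and 6 of 9 were in scGRO-seq (31.7%). The scGRO-seq batches bear on the inAGTuC calls through the shared estimate of the spread. With limma-trend, which does not weight values by depth, the calls were 3 of 9 in inAGTuC (Gdf3, Lin28a and Tdh; 14.9%) and 5 of 9 in scGRO-seq (29%). Leaving out either AGTuC library leaves 1 in that assay, so the spread in such a fit comes from the other assays alone. Its calls are therefore not counted. In both such fits the scGRO-seq calls of Dppa2, Lin28a and Tdgf1 were lost, as were the inAGTuC calls of Lin28a, Tdgf1 and Utf1. All of the calls above kept their sign. The call of Dppa2 in scGRO-seq was lost without Exp160, Exp208, Exp211 or Exp260b, and that of Tdgf1 in inAGTuC without Exp208_c12 or Exp234_c11, whereas Dppa2 was newly called there without Exp208_c14, Exp261_c16, Exp156, Exp160, Exp211 or Exp236. With all deposited reads counted, 3 of 9 (Gdf3, Tdh and Utf1; 25.8% of all genes) were lower in inAGTuC. Leaving out Exp156 kept all 7 calls for scGRO-seq. Both comparisons rest on the same 2 AGTuC libraries and are not independent of each other.

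**Figure D1:**
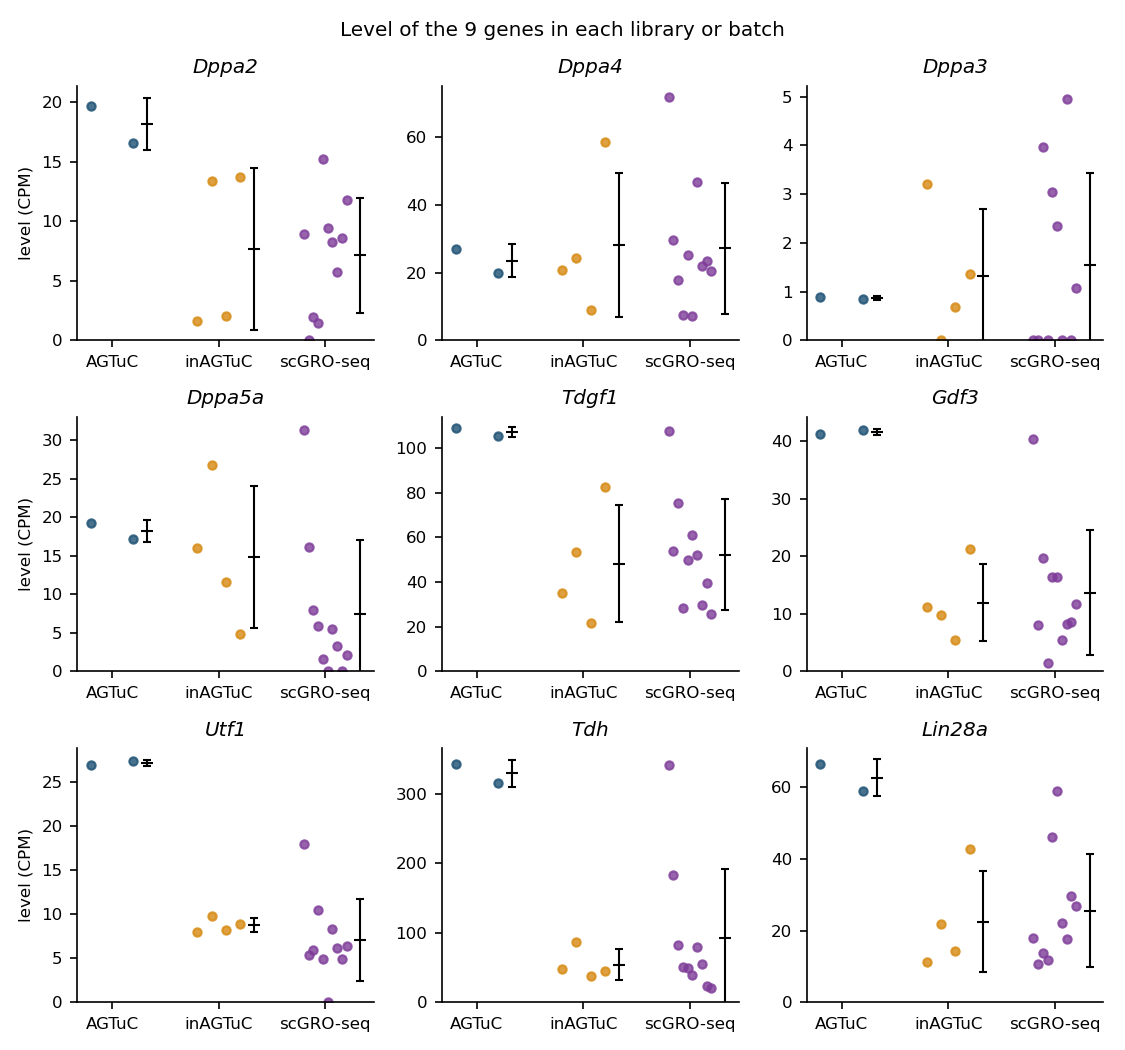
Levels in CPM (linear axes from 0, a scale of its own in each panel) of the 9 genes, with 1 point per AGTuC library (2), inAGTuC library (4) or scGRO-seq batch (10) and bars for mean ± SD. Both AGTuC points of Dppa2, Utf1, Gdf3 and Lin28a lie above all others, and those of Dppa4 lie within the range of the other assays. The topmost scGRO-seq point of Tdh (341, between its AGTuC points), Gdf3 (40.3) and Dppa5a (31.4) is Exp156.

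scGRO-seq and inAGTuC, which share the intact nuclei, were also set against each other. None of the 9 genes passed the test for level (0.0% of 18677 genes were called, 984 at an unadjusted p under 0.05). The furthest apart was Dppa5a, lower in scGRO-seq by a log2 difference of -1.70 (SE 0.59, unadjusted p = 0.00681, limma adjusted p = 0.926). Both assays were run within the batches Exp208 and Exp261. In Exp208, Tdgf1 had 75.2 CPM in scGRO-seq and 45.7 in inAGTuC, Tdh 83.1 and 69.9, and Dppa5a 7.92 and 22.2. In Exp261, a batch outside the 10, the same genes had 11.4 and 82.5, 7.59 and 44.7, and 0 and 4.81, where the inAGTuC values are those of Exp261_c16 alone, the library whose assay is in doubt. The 2 batches ran in opposite directions for Tdgf1 and Tdh. A fit over the 3 inAGTuC and 4 scGRO-seq libraries of both batches with the batch as a block, added after the data were seen, called none of the 8 genes tested for level (0 of 12166 genes, 142 at an unadjusted p under 0.05), nor did a fit of the 4 libraries of Exp208 alone for the 6 genes tested there. The blocked log2 differences were -0.87 for Tdgf1 (SE 1.26, limma adjusted p = 0.977) and -1.66 for Dppa5a (SE 1.02, adjusted p = 0.977), and in Exp208 alone that of Dppa5a was -2.47 (SE 1.18, adjusted p = 0.999).

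Compared per kb of span, the order of the genes differed between the assays. In AGTuC the mean level in CPM per kb was highest for Utf1 (21.6), then Tdh (19.6), Tdgf1 (16.4), Dppa5a (15.9), Gdf3 (8.89), Lin28a (4.04), Dppa4 (2.22), Dppa2 (1.97) and Dppa3 (0.226). Both libraries kept every step of this order but that from Tdgf1 to Dppa5a. In scGRO-seq it ran Tdgf1 (7.99), Dppa5a (6.45), Utf1 (5.60), Tdh (5.54), Gdf3 (2.92), Dppa4 (2.57), Lin28a (1.65), Dppa2 (0.774) and Dppa3 (0.400). Only the step from Lin28a to Dppa2 held in all 10 batches. Tdgf1 lay above Dppa5a in 7, Utf1 above Tdh in 6 and Gdf3 above Dppa4 in 5, and Dppa5a lay above Utf1 in only 3, so those neighbours were not apart beyond their spread. Without Exp156 the mean of Dppa5a was 4.12 CPM per kb, below Utf1 (4.64), and the order began with Tdgf1 (7.05), Utf1, Dppa5a and Tdh (3.89). In inAGTuC Dppa5a came first (12.9), followed by Tdgf1 (7.37), Utf1 (6.94), Tdh (3.24), Dppa4 (2.66), Gdf3 (2.55), Lin28a (1.45), Dppa2 (0.833) and Dppa3 (0.342). All 4 libraries kept only the steps from Utf1 to Tdh and from Gdf3 to Lin28a, and those from Tdgf1 to Utf1 and from Dppa4 to Gdf3 held in 2 of 4. As a background, the 1125 olfactory receptor (Olfr) genes, silent in these cells, had 0.00495, 0.0509 and 0.0435 CPM per kb in AGTuC, inAGTuC and scGRO-seq. In scGRO-seq the 9 genes had between 15.9 times (Dppa3) and 156 times (Tdgf1) as many UMIs as their lengths would hold at the Olfr density.

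The share of reads in the first 500 bp shows how much of the signal lies close to the start, where polymerases pause before they elongate. Over all genes with at least 50 UMIs in the assay, the median share was 23.7% in AGTuC, 2.31% in inAGTuC and 2.00% in scGRO-seq. Of the summed reads of the 9 genes, 11.9%, 16.7% and 9.24% lay in the first 500 bp, beside 20.7%, 3.58% and 2.90% of the summed reads of all genes. Without the short Dppa5a and Utf1 the summed shares were 7.65%, 8.94% and 6.59%. The 500 bp make up 2.99% (Tdh) to 43.6% (Dppa5a) of the spans of the 9 genes, and the shares of all genes were not adjusted for length. None of the 9 was called lower in scGRO-seq, where 34.2% of 18528 genes were, nor in inAGTuC, where 32% were, and none passed between scGRO-seq and inAGTuC (0.0%; limma, 844 of all genes at an unadjusted p under 0.05). None of the 9 had an unadjusted p under 0.05 in either comparison with AGTuC, and the fitted differences of Lin28a and Dppa4 in scGRO-seq were -1.69 (SE 0.93, adjusted p = 0.137) and -0.76 (SE 0.94, adjusted p = 0.519) on the log2 scale. For Dppa5a, with no read beyond the first 500 bp in the intact nuclei, the fitted value (-1.82 in scGRO-seq) has the opposite sign to its share and is no measure of size. A quasi-binomial test for sparse counts, added after the data were seen, called Dppa4 (adjusted p = 0.0332) and Lin28a (adjusted p = 0.000649) lower in scGRO-seq and Dppa4 lower in inAGTuC (adjusted p = 0.01205). By that test 58.5% of all genes were lower in scGRO-seq and 44.9% in inAGTuC.

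Lin28a and Dppa4 had a share of reads in the first 500 bp above that part of their span in AGTuC and not in scGRO-seq. In Lin28a, 15.4% of the AGTuC reads, 6.48% of inAGTuC reads and 2.13% of scGRO-seq reads lay in the first 500 bp, which are 3.23% of its length. Of the 428 AGTuC reads, 35 fell in the first 100 bp and 15 in the next, against 5 and 3 of 375 in scGRO-seq. In Dppa4 the shares were 12.9%, 1.53% and 4.71%, for 4.74% of the length. For both genes the interval of the share in scGRO-seq held the part of the span, and that in AGTuC lay above it. Gdf3 (20.5%, 22.2% and 13.9%, for 10.7% of the length) and Tdgf1 (10.5%, 14.2% and 12.9%, for 7.63%) were above the part of their span in all 3 assays, although the Wilson interval of Gdf3 in scGRO-seq (9.28% to 20.3%) held it. In Tdgf1 AGTuC had 36 UMIs in the first 100 bp and 27 in the second, scGRO-seq had 4 and 41, and inAGTuC 3 and 18. Tdh had 3.31%, 5.88% and 1.61% for 2.99% of the length. By the Wilson intervals it was above that part in inAGTuC alone and below it in scGRO-seq (0.902% to 2.86%). In inAGTuC 7 of its 13 UMIs there came from Exp234_c11, and the share was not computed without that library. In scGRO-seq the batch Exp236 gave 245 of the 683 UMIs of Tdh and 0 of the 11 in the first 500 bp. The scGRO-seq share was not computed without that batch. The AGTuC reads of Tdh began late, with 0, 2, 11 and 41 UMIs in successive steps of 100 bp. Dppa2 (5.69%, 5.71% and 11.9%, for 5.41%) rested on 7, 2 and 14 UMIs there, with the interval above that part in scGRO-seq alone (7.20% to 18.9%). The same held for Dppa3 (16.7%, 40% and 25.8%, for 12.99%), on 1, 2 and 8 UMIs, with an interval of 13.7% to 43.2% in scGRO-seq. Of these scGRO-seq UMIs, the batch Exp236 gave 9 of 14 for Dppa2 and 6 of 8 for Dppa3.

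Dppa5a and Utf1 are so short that 500 bp are 43.6% and 39.8% of the span. Nearly all reads of Dppa5a lay in them nonetheless, 96.8% in AGTuC (121 of 125), all 56 in inAGTuC and all 41 in scGRO-seq. They lay mostly in the first 2 steps of 100 bp, with 60 and 43 UMIs in AGTuC, 10 and 41 in inAGTuC and 10 and 24 in scGRO-seq, and a smaller group lay in the fifth step, with 15, 3 and 7. In AGTuC 17 UMIs, from both libraries, ended at a single base 85 bp from the start. Of the reads of Utf1, 46.3%, 52.6% and 38.2% lay in the first 500 bp, and in AGTuC 44 of 190 lay in the first 100 bp.

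**Figure D2:**
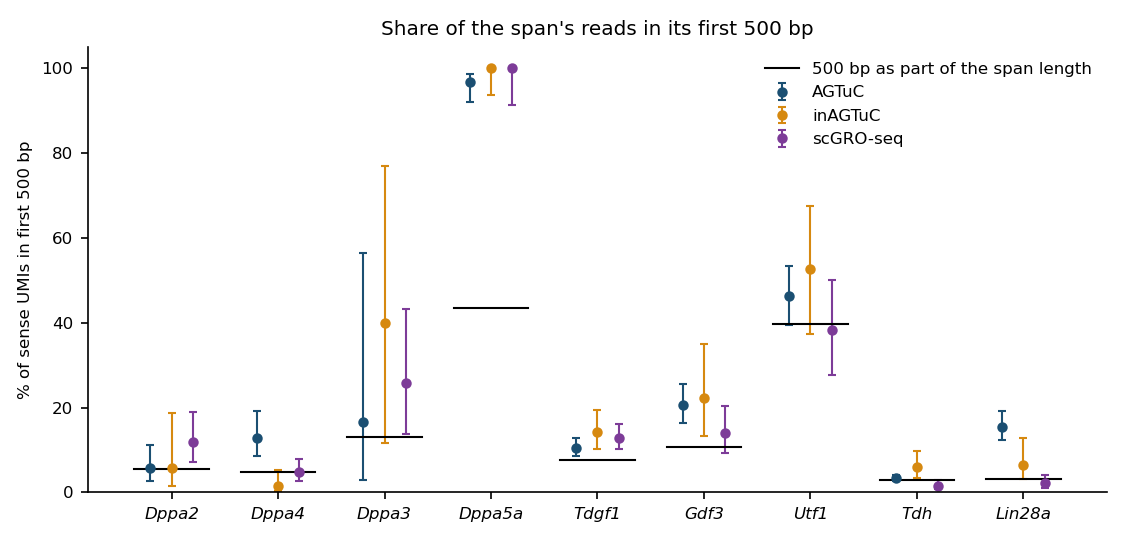
Percentage of each gene's sense UMIs that lie in the first 500 bp of its span (points, libraries or batches of an assay summed; bars, 95% Wilson intervals, which cover counting error only), with a black line at the part of the span that 500 bp make up. Lin28a is at 15.4% in AGTuC and 2.13% in scGRO-seq and Dppa4 at 12.9% and 4.71%, while Dppa5a lies at 96.8% to 100% in all 3 assays.

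Polymerases run on past the annotated end of a gene until they terminate, and for short genes this stretch can hold more reads than the gene itself. In AGTuC the first 5 kb past the end (for Gdf3 and Lin28a, the free stretch up to the next gene) held 2855 sense UMIs over the 9 genes, against 4329 in the spans, or 0.660 for each UMI of a span. In inAGTuC they held 105 against 866 and in scGRO-seq 275 against 2263, or 0.121 and 0.122. As a ratio of densities per base, past the end over the span, the summed reads of the 9 genes gave 1.14, 0.209 and 0.209. Medians of this ratio over single genes were 1.01, 0.370 and 0.400, a measure unlike a ratio of sums. They cover genes with at least 50 UMIs in the assay and 1000 bp free past the end, a set that differs between assays.

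Tdgf1 showed the steepest fall in scGRO-seq. Its AGTuC libraries had 213 and 454 UMIs past the end, 87.7 and 90.4 for every 100 in the span, and the inAGTuC libraries 4.55, 13.6, 18.8 and 5.00 per 100. In scGRO-seq the lowest, median and highest batches had 0, 5.13 and 15.8 per 100. No library of the other assays came near AGTuC, and the log2 difference of the ratio was -3.99 for scGRO-seq (SE 0.71, limma adjusted p = 0.000114) and -3.14 for inAGTuC (SE 0.82, adjusted p = 0.00881). The scGRO-seq call for Tdgf1 was kept in all 29 alternatives run. These include fits that left AGTuC with 1 library and took the spread from the other assays. In the 1 kb steps past its end AGTuC had 167, 260, 53, 107 and 80 UMIs, and then 57, 22, 16, 3 and 10, so that the signal lasted for about 8 kb at 0.1 or more of the mean of the span. In scGRO-seq the first kb had 0.164 of that mean and later steps less, except for the eighth (0.239), where 9 of 19 UMIs, from 9 barcodes, ended at 1 base.

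Tdh and Utf1 also had fewer reads past the end in scGRO-seq. For Tdh the AGTuC libraries had 31.2 and 37.7 UMIs past the end per 100 in the span, the inAGTuC libraries 13.3, 4.23, 3.64 and 3.08, and the scGRO-seq batches 0, 4.83 and 17.6 as lowest, median and highest. Neither assay overlapped with AGTuC, and the log2 difference was -2.62 for scGRO-seq (SE 0.73, limma adjusted p = 0.00984) and -2.54 for inAGTuC (SE 0.86, adjusted p = 0.0409). Its AGTuC reads peaked in the third kb past the end, with 330 UMIs or 2.44 times the mean of the span, and dropped to 15 in the sixth. Utf1 had 248 and 252 per 100 in AGTuC, 40, 50, 33.3 and 69.2 in inAGTuC, and 0, 33.3 and 91.7 in the 9 scGRO-seq batches with a read in the span. Past Utf1 AGTuC thus listed more UMIs (476) than within it (190), while scGRO-seq listed 37 past and 68 within. The log2 difference was -2.48 in scGRO-seq (SE 0.77, adjusted p = 0.0203) and -2.31 in inAGTuC (SE 0.88, adjusted p = 0.0713), the latter not past the threshold. The AGTuC signal past Utf1 had a second rise, with 125 and 152 UMIs in the fifth and sixth kb, before it fell to 29.

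Dppa5a had 163 and 196 UMIs past the end per 100 in the span in AGTuC, and 10, 9.09, 11.8 and 28.6 in inAGTuC. In the 8 scGRO-seq batches with a read in the span, the values were 0, 0 and 125 as lowest, median and highest, from 14 UMIs past the end in all. The log2 difference was -2.39 for scGRO-seq (SE 0.85, limma adjusted p = 0.0433) and -3.45 for inAGTuC (SE 0.98, adjusted p = 0.0162). Dppa4 had 86.7 and 92.6 per 100 in AGTuC, 15.4, 25, 46.2 and 12.9 in inAGTuC and 0, 21.1 and 100 in scGRO-seq. For Dppa5a no library or batch with a read in the span reached AGTuC, while for Dppa4 the highest batch lay above it, and the log2 difference of Dppa4 was -2.07 for scGRO-seq (SE 0.74, adjusted p = 0.0449) and -1.96 for inAGTuC (SE 0.84, adjusted p = 0.108). Lin28a had 37.2 and 38.9 per 100 in AGTuC, 14.3, 0, 4.76 and 8.06 in inAGTuC and 0, 8.16 and 28.6 in scGRO-seq, all below AGTuC. It was just under the threshold in inAGTuC (log2 difference -2.32, SE 0.82, adjusted p = 0.04995) and not in scGRO-seq (-1.57, SE 0.70, adjusted p = 0.109). Gdf3 (-1.94, SE 0.78, adjusted p = 0.0756 in scGRO-seq) and Dppa2 (-1.80, SE 0.82, adjusted p = 0.12) were not called, and Dppa3 had 2, 1 and 3 UMIs past its end.

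In all, 5 of 9 genes (Tdgf1, Tdh, Utf1, Dppa5a and Dppa4) had fewer reads past the end relative to the span in scGRO-seq than in AGTuC, where 12.2% of 19302 genes tested did, and 4 of 9 (Tdgf1, Tdh, Dppa5a and Lin28a) in inAGTuC, where 10.6% did. None of the 9 passed the test between scGRO-seq and inAGTuC (0.0%; limma, 1112 of all genes at an unadjusted p under 0.05). With all deposited reads the counts were 7 of 9 (20.6% of all genes) and 8 of 9 (16.5%). With 2 kb past the end they were 1 (Tdgf1; 6.92%) and 2 (Dppa5a and Tdgf1; 6.58%), with 10 kb 3 (Dppa4, Tdgf1 and Tdh; 12%) and 3 (Lin28a, Tdgf1 and Tdh; 8.66%), and with limma-trend 2 (Tdgf1 and Tdh; 7.23%) and 1 (Tdgf1; 6.22%). Without either AGTuC library, only Tdgf1 of the 9 remained called in scGRO-seq (1.77% of all genes without Exp125c_c01 and 1.42% without Exp125c_c02) and none in inAGTuC (1.37% and 1.11%). With all 14 scGRO-seq batches the counts were 1 of 9 (1.95%) and 0 of 9 (1.96%). When 1 inAGTuC library or scGRO-seq batch was left out, 10.5% to 13.5% of all genes were called in scGRO-seq and 5.72% to 11.6% in inAGTuC. Of the 9, without Exp156 or without Exp160 3 remained in scGRO-seq (Tdgf1, Tdh and Utf1). In inAGTuC 1 gene (Tdgf1) remained without Exp208_c14, and 2 (Tdgf1 and Dppa5a) without Exp234_c11 or without Exp261_c16. In scGRO-seq the call of Dppa5a was also lost without Exp208, Exp211 or Exp260, and that of Dppa4 without Exp236, Exp260, Exp260b or Exp263, whereas Gdf3 was newly called without Exp260. In inAGTuC that of Lin28a was lost without Exp156, Exp236, Exp246, Exp260 or Exp260b.

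**Figure D3:**
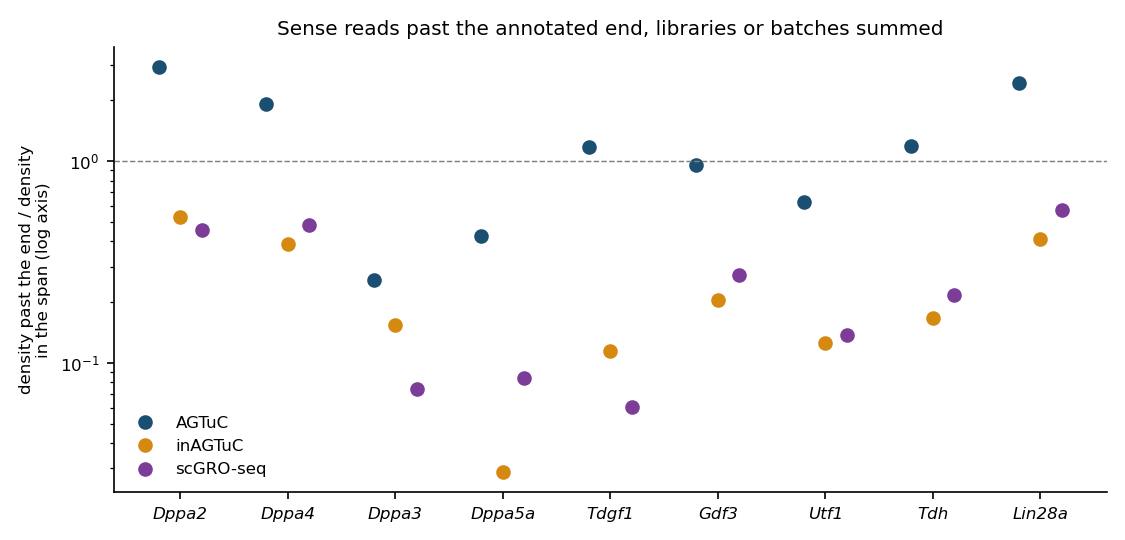
Density of sense UMIs in the first 5 kb past the annotated end divided by the density in the span (log axis; libraries or batches of an assay summed; dashed line, equal density). AGTuC lies highest for each of the 9 genes, from 0.257 (Dppa3, 2 UMIs) to 2.92 (Dppa2), and the inAGTuC and scGRO-seq points lie at 0.574 or below.

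Dppa4 and Dppa2 are read in the same direction, so that reads past Dppa4 approach the start of Dppa2. In AGTuC the density in the nearer part of the 15981 bp between them was 1.74 times that over Dppa4, and in the farther part 0.605 times. In inAGTuC these were 0.746 and 0.0403, and in scGRO-seq 0.417 and 0.287. Of the 74 UMIs in the nearer part in inAGTuC, 33 ended at 1 base, and without them the ratio was 0.414. The AGTuC signal past Dppa4 did not fade in the first 10 kb: it was 1.16 times the mean of the span in the first kb, 3.47 times in the fifth and stayed above 0.1 of it throughout. By contrast the signal past Dppa2 was 6.54 times the mean of the span in the second kb (87 UMIs), fell to 5 UMIs in the fourth and was 0 from the eighth. These 33 UMIs lay 5672 bp past the end of Dppa4, outside the 5 kb window, in 9 barcodes of 2 libraries, and the kb that holds them had 45 UMIs. Dppa2 itself had 0.907 of the density of Dppa4 in AGTuC, 0.305 in inAGTuC and 0.489 in scGRO-seq. Reads that run on from Dppa4 would be counted for Dppa2. Their part in its level, its share of cells and its pairs was not tested.

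**Figure D4:**
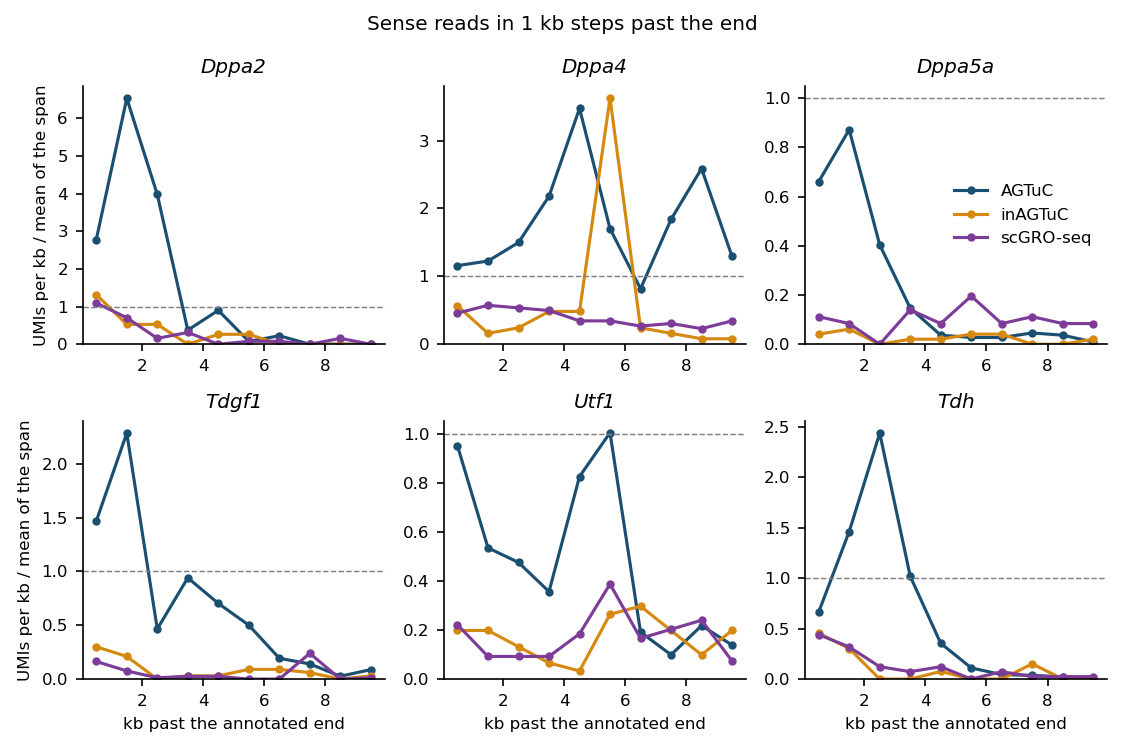
Sense UMIs in each 1 kb step past the annotated end, divided by the mean UMIs per kb of the gene's span (linear axes from 0; dashed line, equal to the span; libraries or batches of an assay summed). AGTuC rises to 6.54 past Dppa2, 2.44 past Tdh and 2.29 past Tdgf1 before it falls, scGRO-seq stays at or below 1.10, and the inAGTuC peak of 3.63 past Dppa4 holds 33 UMIs at a single base.

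The reads were also split into those that end in an exon and those that end in an intron. Over the 9 genes, 22.5% of sense UMIs ended in an exon in AGTuC, 34.5% in inAGTuC and 27.4% in scGRO-seq. Over all genes the share was 29.7%, 16.1% and 15.4%, not adjusted for the exon part of their spans. Per base, the exons of the 9 genes together held 1.01, 1.84 and 1.32 times the UMIs of their introns in AGTuC, inAGTuC and scGRO-seq. For Tdgf1 the share was 32.9%, 35.3% and 30.2%, and the Wilson intervals of inAGTuC and scGRO-seq held the exon part of its span, 29.4%, with AGTuC above it (interval 29.6% to 36.3%). For Tdh, with an exon part of 11.2%, it was 7.77% in AGTuC (interval 6.74% to 8.95%), below that part, 16.7% in inAGTuC, above it, and 10.98% in scGRO-seq, whose interval held it. In inAGTuC 11 of the 37 exon UMIs of Tdh came from Exp234_c11, and the share was not computed without that library. Gdf3 was above its exon part in the intact nuclei (41.8%, 72.2% and 59.6%, for 45.4%), as was Lin28a in AGTuC and scGRO-seq (29.9%, 24.1% and 36.5%, for 22.5%). Dppa5a was above it in all 3 assays (89.6%, 100% and 97.6%, for 55.8%). Dppa2 (7.32%, 11.4% and 14.4%, for 21.01%) and Utf1 (86.3%, 100% and 95.6%, for 92.3%) were below it in AGTuC alone by the intervals. The short Dppa5a and Utf1 gave 56 and 38 of the 299 exon UMIs of the 9 genes in inAGTuC. No test was run on these shares.

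The strand of the reads also set the genes apart. In AGTuC the opposite strand held 1.97% of the reads on Tdgf1, 2.38% on Dppa2, 3.125% on Dppa4 and 3.37% on Tdh, but 24.9% on Gdf3 (97 UMIs), 13.01% on Lin28a and 11.2% on Utf1 (24 UMIs). It was lowest on Dppa5a (0.794%) and highest on Dppa3 (33.3%, but only 3 of 9 UMIs). In scGRO-seq it held from 12.8% (Dppa5a) to 31.8% (Dppa2) of the reads of a gene. Tdgf1, with 1.97% in AGTuC, had 22.5% there, and Gdf3 had 26.3%. The batch Exp236 gave 48 of the 55 such UMIs of Dppa2, 91 of 151 of Tdgf1, 38 of 54 of Gdf3 and 3 of 6 of Dppa5a. Over all genes the share was 30.9% in scGRO-seq and 16.7% in AGTuC.

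The single cells gave the share of cells with a read. Of 2526 cells in 35 libraries, with 1177 to 51431 UMIs each (median 3429.5), 550 had a sense UMI of Tdh (21.8%, 95% Wilson interval 20.2% to 23.4%), 426 of Tdgf1 (16.9%), 319 of Lin28a (12.6%), 248 of Dppa4 (9.82%), 148 of Gdf3 (5.86%), 110 of Dppa2 (4.36%), 68 of Utf1 (2.69%), 40 of Dppa5a (1.58%) and 29 of Dppa3 (1.15%). The order follows the reads per gene and not the level per kb, so that the long Tdh and Lin28a came before the short Utf1 and Dppa5a. Exp236 gave 812 of the cells and 186 of the 319 with Lin28a. Without it the share of Lin28a was 7.76% (interval 6.59% to 9.12%), below the 8.11% of Dppa4 (6.91% to 9.50%), and that of Dppa2 was 2.39%, below the 2.57% of Utf1, with overlapping intervals in both pairs. When every cell was thinned to 1000 UMIs, the expected shares were 6.48% for Tdh, 4.54% for Tdgf1, 3.35% for Lin28a, 2.63% for Dppa4, 1.56% for Gdf3, 1.06% for Dppa2, 0.670% for Utf1, 0.466% for Dppa5a and 0.227% for Dppa3, with no cell left out. As a background in the same cells, the median Olfr gene was seen in 0% of cells and the highest in 0.633%, below each of the 9 genes before thinning.

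Between batches the shares ran far apart. Tdh was seen in 53.4% of the cells of Exp156 (55 of 103; interval 43.8% to 62.7%) and in 46.3% of Exp160, but in 7.09% of Exp263 and 7.35% of Exp264a. After thinning to equal depth the shares were 31.003% and 17.4% against 2.22% and 2.31%. Lin28a behaved otherwise, with 22.9% in Exp236 and 22.6% in Exp246 against 3.88% in Exp156. Thinned to equal depth, Lin28a was still highest in Exp246 (5.70%) and Exp236 (5.39%). Tdgf1 ranged from 8.09% (Exp264a) to 25.8% (Exp246), Dppa4 from 3.23% to 13.4%, Dppa5a from 0% in 2 batches to 6.80% (Exp156) and Dppa2 from 0% in 1 batch to 8.50% (Exp236). The batches differ in no labelled treatment, so that no test between them was made.

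**Figure D5:**
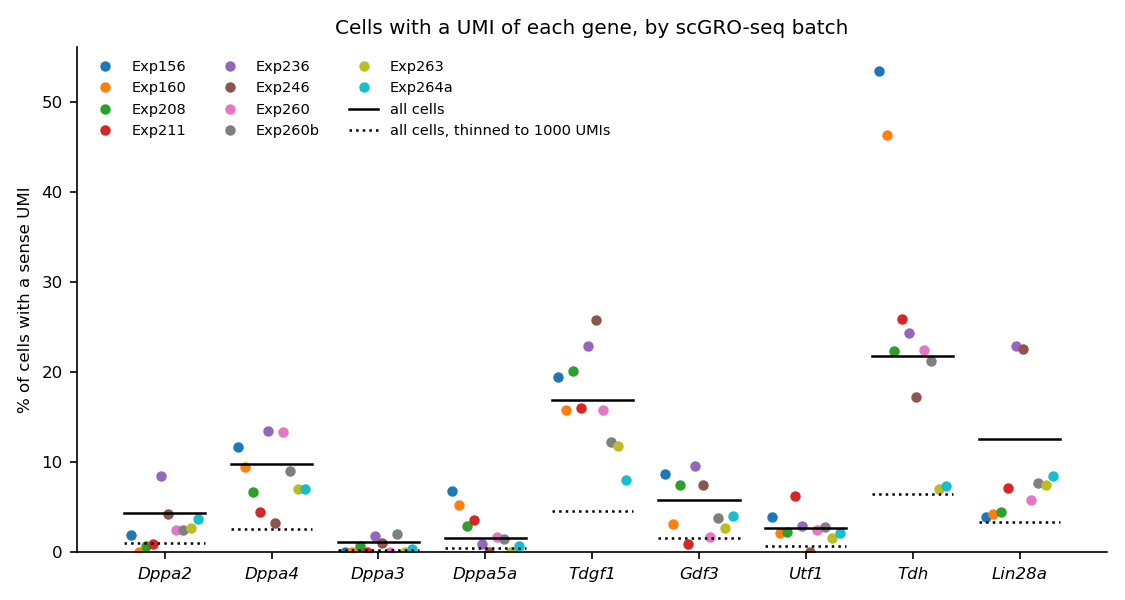
Percentage of cells with at least 1 sense UMI of each gene (linear axis from 0), with 1 point per scGRO-seq batch, a solid line for all 2526 cells and a dotted line for the share expected when every cell is thinned to 1000 UMIs. Tdh spans 7.09% to 53.4% of cells with Exp156 and Exp160 on top, and Lin28a is set apart by Exp236 and Exp246 at 22.9% and 22.6%.

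Few cells held more than 1 UMI of a gene: 109 cells did for Tdh, 72 for Tdgf1, 46 for Lin28a and 26 for Dppa4, with at most 5 UMIs (Tdh), and none for Utf1. No UMI of any of the 9 genes was found in 1181 cells (46.8%), 919 cells had a UMI of 1 gene, 297 of 2 genes, 98 of 3, 25 of 4, 5 of 5 and 1 of 6. Over the 36 pairs of genes, 806 pairs of UMI-positive genes were seen in the same cell where the shares within batches would give 662, and 25 of 36 pairs lay above that value. The neighbours Dppa4 and Dppa2 were seen together in 22 cells (12.5 from the shares), Gdf3 and Dppa3 in 3 (2.05), and the most frequent pair, Tdgf1 and Tdh, in 116 (99.7). Cells with a UMI of a gene also held more UMIs in all, for example a median of 5162.5 for Dppa2 and 4528 for Tdgf1 against 3429.5, and the part of depth in the pairs was not tested. Whether reads counted for Dppa2 ran on from Dppa4 was not tested either.

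Genes that act with the 9 were read from lists. Against AGTuC, 21.4% of all genes were higher and 41.1% lower in scGRO-seq, and 19.4% and 27.6% in inAGTuC. The median log2 difference in scGRO-seq was -0.60 over the Nodal pathway, -0.99 over threonine and glycine breakdown, -0.65 over the let-7 pathway, -0.90 over DNA methylation and -2.12 over the ES cell markers, beside -0.74 over all genes. Of 13 Nodal-pathway genes around Tdgf1 and Gdf3, 4 were lower in scGRO-seq (Nodal, its type I receptor Acvr1b, the nuclear partner Foxh1 and the ligand Gdf1) and 2 higher (the receptor Acvr1c and the co-receptor Cfc1). Nodal had a mean of 57.6 CPM in AGTuC, 15.8 in inAGTuC and 13.02 in scGRO-seq (log2 difference -2.22, SE 0.43, limma adjusted p = 6.13e-05). Acvr1c had no UMI in AGTuC and means of 5.63 and 4.62 CPM in inAGTuC and scGRO-seq, only 1.23 and 1.18 times what its 90306 bp would hold there at the Olfr density, close to the background of these assays. Cfc1, with 1 UMI in AGTuC, was at 2.45, 2.77 and 5.27 times the Olfr density in AGTuC, inAGTuC and scGRO-seq. Of 9 genes of threonine and glycine breakdown around Tdh, 4 were lower and none higher in scGRO-seq. They were Gcat, which takes the next step after Tdh (46.9, 8.36 and 9.06 CPM), Amt and Gcsh of the glycine cleavage system, and Mthfd2 of the folate cycle. Of 8 let-7 pathway genes around Lin28a, 1 was lower in scGRO-seq (Tut7) and 1 in inAGTuC (Trim71), and none was higher.

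Of 8 DNA methylation genes listed around Dppa3, 4 were lower in scGRO-seq and 1 higher. The lower ones were Uhrf1, which Dppa3 binds (124, 45.7 and 48.8 CPM), Dnmt1, Dnmt3a and Tet2, and the higher one was Dnmt3l (7.43 CPM in AGTuC and 24.1 in scGRO-seq; log2 difference 1.53, SE 0.63, limma adjusted p = 0.034). All 8 ES cell markers were lower in scGRO-seq and 7 of 8 in inAGTuC, and 7 of 8 in both after TMM scaling. Markers of other cell types gave mixed counts. Of 5 primitive endoderm markers, 1 was lower in scGRO-seq (Sox7) and none called in inAGTuC, and of 3 mesoderm markers tested 1 was higher in both (T, from 0 UMIs in AGTuC). Of 5 fibroblast markers tested, 4 were higher in scGRO-seq (Col1a1, Col1a2, Col3a1 and Postn) and 1 lower (Thy1), and 3 were higher and none lower in inAGTuC. Col1a1 had means of 1.95, 3.33 and 10.48 CPM in AGTuC, inAGTuC and scGRO-seq, and the other 3 had no UMI in AGTuC. At the Olfr density of each assay Col1a1 would have 0.0832, 0.856 and 0.732 CPM in AGTuC, inAGTuC and scGRO-seq. Its means lay above that in all 3 assays, at 23.4, 3.89 and 14.3 times the Olfr density. In scGRO-seq Col1a2, Col3a1 and Postn were at 1.61, 1.11 and 1.62 times it, and at 1.31, 0.952 and 1.51 times in inAGTuC, near the background. Of 4 trophectoderm markers, 3 were higher in scGRO-seq and in inAGTuC (Cdx2, Elf5 and Gata3, the last with 0.210, 4.02 and 5.46 CPM) and 1 lower (Tfap2c, 47.4, 13.9 and 9.51 CPM). Of 2 neural markers tested, Pax6 was higher in both (0.105, 8.54 and 7.96 CPM) and Sox1 lower (54.9, 4.06 and 5.26 CPM). At the Olfr density, which was lowest in AGTuC, Cdx2 would have 0.0314, 0.323 and 0.277 CPM in AGTuC, inAGTuC and scGRO-seq. Its means were 0.329, 3.34 and 1.49 CPM. Elf5 would have 0.192, 1.98 and 1.69 CPM and had 0.434, 4.34 and 4.83. As multiples of that density, Cdx2 was at 10.48, 10.32 and 5.38 times and Elf5 at 2.26, 2.19 and 2.85. Gata3 was at 1.98, 3.67 and 5.83 times and Pax6 at 0.720, 5.68 and 6.20. TMM scaling turned none of these called directions, ended the calls of Thy1 and Sox7, and newly called the endoderm marker Gata6 higher in inAGTuC. The part of these markers in the levels of the 9 genes was not tested. Reads past the end were lower in scGRO-seq for 5 of 7 ES cell markers, none of 5 fibroblast, 4 trophectoderm and 1 neural marker, 5 of 8 let-7 genes, 4 of 8 methylation genes, 2 of 13 Nodal-pathway genes and 1 of 8 threonine and glycine genes, beside 12.2% of all genes.

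The genes whose levels varied most like those of the 9 over the 16 libraries and batches were found among 10836 genes with at least 200 UMIs, by the Pearson correlation of log2(CPM + 1). Dppa3, with fewer UMIs, was not compared. For Tdh they were Tfcp2l1 (r = 0.951), an ES cell transcription factor, and Terf2 (0.944), and for Utf1 they were Sox2 (0.953) and Mtrf1 (0.927). Tdgf1 was most like Csnk2a1 and Ndufa10 (both 0.95), Gdf3 like Slc15a4 (0.944) and Cct4 (0.937), and Dppa5a like Cdyl2 (0.933) and Pcolce (0.914). Lin28a and Dppa2 shared their closest gene, Cds2 (0.93 and 0.925), followed by Ddc (0.901) and Dnajc21 (0.915). Dppa4 had the weakest likeness, with Snx5 (0.821) and Zfp808 (0.811). These values are the highest among all genes compared, over points that share assay, batch and depth, and are given as a description.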

How the data were processed

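The data are alignments of single nascent RNA molecules from V6.5 cells. According to the study's methods and the labels, the authors removed adaptors with Cutadapt, split cell barcodes and UMIs with Flexbar, mapped reads to mm10 with Bowtie2 and removed duplicates with UMI-tools, without pooling replicates; versions are not given in the sources used here. Each deposited line is 1 read whose score, as deposited, is its mapping quality. A line was counted as 1 UMI for the gene whose span (RefSeq, GRCm38) holds its RNA 3′ end, on the strand opposite to the listed one. A molecule, defined by position, strand, barcode and UMI, that several libraries listed was dropped everywhere, as was an scGRO-seq list of which 99.72% repeats the inAGTuC list Exp261_c16. Barcodes name wells and recur between libraries (288 in all, none in every library), so cells were kept apart by library. Cells needed 1000 UMIs and 750 features, and libraries 24 such cells. Features were genes and the 1670 enhancers whose positions were at hand, counted after shared molecules were dropped. The study used the same limits with more enhancers, so the cells kept here need not be those it kept. The number of columns of other samples was 0.

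Levels, first 500 bp against the rest of the span (genes of at least 1000 bp) and 5 kb past the end against the span (at least 1000 bp free) were fitted with limma 3.58.1 (voom, R 4.3.3) over 16 libraries and batches and all genes with at least 20 UMIs, the latter 2 measures with the library as a block and a region by assay term. P-values were adjusted by Benjamini-Hochberg over all genes tested, with a threshold of 0.05, and the fits were tested on simulated data. Counting error alone is covered by the 95% intervals (Wilson) and by the limits of 3 UMIs. All 9 genes are named, other genes by lists and, per gene, the closest in level. The members and lists were chosen with earlier results of these data known. Alternatives were other read and cell filters, TMM scaling, limma-trend, other windows, other replicate units and leaving out each library or batch. Sharing molecules in equal parts, leaving out Exp234_c11 and Exp236 together, a quasi-binomial test, fits of scGRO-seq against inAGTuC within Exp208 and Exp261, the order of levels without Exp156, shares of cells without Exp236, and sums without 1 library, position or pair of short genes were added after the data were seen. Tables used pandas 2.3.3, numpy 2.4.6 and scipy 1.17.1, and plots used matplotlib 3.10.9.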

Additional observations from a re-analysis of the deposited data

Results flagged for a closer look

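In 4 of 27 groups of values, each gene's levels over the inAGTuC libraries or scGRO-seq batches and its shares of cells over the batches, the highest value stood further from its neighbour than the limit for groups of that size, which chance passes in about 1 group in 20. Of these, 3 were levels in the scGRO-seq batch Exp156. Tdh had 340.63 CPM there and at most 183.23 in the other batches, Gdf3 had 40.34 and at most 19.8, and Dppa5a had 31.37 and at most 16.17. The remaining one was the share of cells with a UMI of Dppa2, which was 8.498% in Exp236 and at most 4.301% elsewhere. Exp156 held the fewest UMIs (223119) and Exp236 the most (4928371), and the part of depth in these values was not tested.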

How the results depend on the processing

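No called difference of the 9 genes changed its direction in any alternative. Of 2362 values of a gene under an alternative, 167 had another sign, none of them past the threshold on either side, and 130 of these concerned scGRO-seq against inAGTuC. Of the same values, 110 were no longer past the threshold and 36 newly past it. Genes with a lower level in inAGTuC than in AGTuC (5; 27.6% of all genes) were 3 with all deposited reads (25.8%) or limma-trend (14.9%), 2 with TMM scaling (17.3%) and 0 with all scGRO-seq batches (11.2%), and 4 to 6 when each inAGTuC library or scGRO-seq batch was left out in turn. Fits that leave 1 AGTuC library are not counted in these ranges, although calls were lost in them. Genes lower in scGRO-seq (7; 41.1%) were 4 with TMM scaling (25.5%) and 6 to 7 when 1 inAGTuC library or scGRO-seq batch was left out, and against inAGTuC 0 to 0 differed. A lower promoter share (0 for both) was called for 1 gene in inAGTuC by the quasi-binomial test (44.9% of all genes), and in scGRO-seq for 2 by that test (58.5%), 2 with the first 1000 bp (Dppa5a and Utf1; 39.4%) and 1 with libraries as replicates (Dppa5a; 14.3%), so that none of these counts stands above the share of all genes. With libraries as replicates 2 genes (Dppa4 and Dppa5a) also differed between scGRO-seq and inAGTuC, where 43.8% of all genes were higher in scGRO-seq. The fitted value of Dppa5a has the opposite sign to its share, so its calls are no evidence of a lower share. Leaving out 1 library or batch gave 0 throughout. Fewer reads past the end in inAGTuC (4 genes; 10.6% of all genes) became 8 with all deposited reads (16.5%) or the quasi-binomial test (22.1%), 2 with 2 kb past the end (6.58%) or without Exp234_c11 and Exp236 (11.6%), 1 with limma-trend (6.22%), 0 with all scGRO-seq batches (1.96%), and 1 to 4 when 1 inAGTuC library or scGRO-seq batch was left out. In scGRO-seq (5; 12.2%) it became 8 with the quasi-binomial test (31.3%), 3 with 10 kb (12%) or with libraries as replicates (6.22%), 2 with limma-trend (7.23%), 1 with 2 kb (6.92%) or with all scGRO-seq batches (1.95%), and 3 to 5 when 1 inAGTuC library or scGRO-seq batch was left out. With libraries as replicates 1 gene (Dppa5a) differed between scGRO-seq and inAGTuC, where 22% of all genes were higher in scGRO-seq. The causes were not tested. The share of cells moved with depth: thinned to 1000 UMIs it was 6.476% for Tdh, 4.544% for Tdgf1, 3.348% for Lin28a, 2.633% for Dppa4, 1.556% for Gdf3, 1.056% for Dppa2, 0.67% for Utf1, 0.466% for Dppa5a and 0.227% for Dppa3. With all deposited reads (3045 cells) it was 29.524% for Tdh, 25.255% for Tdgf1, 18.128% for Lin28a, 15.172% for Dppa4, 8.67% for Gdf3, 6.273% for Dppa2, 3.645% for Utf1 and 2.693% for Dppa5a. With the UMI minimum alone (3647 cells) it was 17.987% for Tdh, 13.6% for Tdgf1, 10.09% for Lin28a, 7.815% for Dppa4, 4.716% for Gdf3 and 3.427% for Dppa2, and with a mapping quality of at least 10 it was 19.161% for Tdh, 14.766% for Tdgf1, 10.966% for Lin28a and 8.314% for Dppa4. Without Exp236 it was 14.002% for Tdgf1, 8.11% for Dppa4, 7.76% for Lin28a, 4.084% for Gdf3 and 2.392% for Dppa2. Within Exp234 no comparison was run, since none of its single cells passed the filters. With the batch as a block in Exp208 and Exp261, or in Exp208 alone, no tested gene of the 9 was called between scGRO-seq and inAGTuC in level, promoter share or reads past the end. No paired analysis was possible because the replicate numbers in the labels tie no library of 1 assay to one of another. The block by shared batch just given is the nearest to it, and AGTuC shares no batch with the others.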

Other observations

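Some reads of these genes ended at the same base in many cells. In scGRO-seq, 10 of 683 UMIs of Tdh, from 10 barcodes in 7 libraries, ended 5893 bp from its start, where inAGTuC had 5 UMIs from 5 barcodes in 2 libraries. Of 276 UMIs of Dppa4, 10 from 10 barcodes in 6 libraries ended 6379 bp from its start. Past the end of Tdgf1, 9 UMIs from 9 barcodes in 6 libraries ended at 7594 bp. In AGTuC the 2265 UMIs of Tdh lay at 1734 positions, with at most 6 at any of them.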
